A study of Homo sapiens with 18 samples.

Results

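The transcripts described here belong to 10 genes of the NF-kB system: the DNA-binding subunits NFKB1, NFKB2, RELA and RELB, the inhibitors NFKBIA and NFKBIE, and the feedback and target genes TNFAIP3, TNFAIP2, BIRC3 and TNFRSF11B. They were picked by their symbols and not by their values, and they are 10 of 35933 genes with a value in every library. RNA sequencing was deposited for 18 libraries, as 3 replicates (a, b and c) of each of 6 groups. The groups are the negative CRISPR control and the METTL3 CRISPR knockdown, so labelled, of MCF10A, MCF10AT1 and MCF10CA1h. METTL3 is the catalytic subunit of the main writer of N6-methyladenosine on messenger RNA, and the comparison asks what its targeting does at different stages of a breast cancer model.

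MCF10A is a spontaneously immortalized, non-tumorigenic human breast epithelial line. MCF10AT1 carries, in addition, a stably integrated mutated HRas, and MCF10CA1h was raised from MCF10AT1 by passage through mouse xenografts. All 6 groups had received Cas9 with a guide RNA, either a control guide or a guide to the first exon of METTL3, with mCherry as the marker. They were sorted in repeated rounds for mCherry-positive cells and then taken through clonal selection from single cells, so a difference between the arms of a line cannot be told apart from a difference between clones. The study kept 2 knockdown candidates of each line and compared the control in its sequencing with 1 of them, which the labels do not name. All lines grew in the same medium, with horse serum, insulin, hydrocortisone, cholera toxin and epidermal growth factor, and no NF-kB stimulus was named. Nothing in the labels says that the 3 replicates came from separate cultures, so p-values measure the spread between these libraries, which may be technical.

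NF-kB proteins sit in the cytoplasm bound to inhibitors of the IkB family until receptors for tumor necrosis factor, interleukin 1 or microbial products activate the IkB kinases, which mark IkB for degradation. In the canonical branch RELA with the p50 product of NFKB1 enters the nucleus, and in the non-canonical branch RELB with the p52 product of NFKB2 does. Several of their targets close the loop: NFKBIA and NFKBIE encode IkB alpha and IkB epsilon, TNFAIP3 encodes the ubiquitin-editing enzyme A20, and NFKB1, NFKB2 and RELB are themselves induced. In breast epithelium the pathway is known for its part in inflammation, survival and mammary gland growth.

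Promoter windows of NFKB2, NFKBIA, TNFAIP3 and BIRC3 are shown with their kappaB letters, since these genes are textbook targets of NF-kB and are described with their values. Each window runs from 250 bases before to 50 bases after a start site of RefSeq on GRCh38.p14 (hg38). Of the 10 genes, 7 had a window, 11 windows in all, and RELB, NFKBIE and TNFRSF11B are named only. The kappaB consensus, a motif of 10 bases, was searched on both strands. It matched in at least 1 window of 5 of the 7 genes, against 13.3% of all 27305 genes with a window, and in 11.3% of the 35116 windows of all genes. RELA and TNFAIP2 held no match in these windows. Capitals mark the matches, and in the NFKB2 window 2 of the 3 matches overlap by all but 1 base.
NFKB2, chr10:102394328-102394627, plus strand: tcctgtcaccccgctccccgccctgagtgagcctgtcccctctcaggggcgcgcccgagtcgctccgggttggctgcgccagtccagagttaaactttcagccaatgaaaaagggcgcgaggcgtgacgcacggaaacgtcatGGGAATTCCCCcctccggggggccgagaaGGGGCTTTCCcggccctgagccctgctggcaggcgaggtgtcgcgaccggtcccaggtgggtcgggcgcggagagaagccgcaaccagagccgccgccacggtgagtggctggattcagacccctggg
NFKBIA, chr14:35404700-35404999, minus strand: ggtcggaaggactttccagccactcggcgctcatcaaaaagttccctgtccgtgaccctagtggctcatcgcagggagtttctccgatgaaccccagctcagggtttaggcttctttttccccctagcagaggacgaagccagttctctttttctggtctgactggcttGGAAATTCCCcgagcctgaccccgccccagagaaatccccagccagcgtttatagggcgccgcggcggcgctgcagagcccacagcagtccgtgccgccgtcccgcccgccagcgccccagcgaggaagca
TNFAIP3, chr6:137867009-137867308, plus strand: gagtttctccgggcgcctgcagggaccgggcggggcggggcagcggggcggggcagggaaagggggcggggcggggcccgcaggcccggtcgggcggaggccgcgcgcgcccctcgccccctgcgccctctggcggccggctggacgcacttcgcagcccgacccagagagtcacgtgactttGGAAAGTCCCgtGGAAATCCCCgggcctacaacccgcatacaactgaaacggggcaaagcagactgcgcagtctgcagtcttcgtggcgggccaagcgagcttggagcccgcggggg
BIRC3, chr11:102317234-102317533, plus strand: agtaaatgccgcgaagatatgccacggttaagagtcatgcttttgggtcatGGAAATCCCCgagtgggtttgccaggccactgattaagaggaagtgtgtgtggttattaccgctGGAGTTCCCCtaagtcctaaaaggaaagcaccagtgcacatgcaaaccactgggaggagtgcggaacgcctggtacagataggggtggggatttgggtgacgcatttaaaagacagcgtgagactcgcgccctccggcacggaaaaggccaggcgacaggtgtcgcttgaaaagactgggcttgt
In these windows the matches began 107, 106 and 78 bases before the start site of NFKB2, 81 bases before that of NFKBIA, 67 and 55 bases before that of TNFAIP3, and 199 and 135 bases before that of BIRC3. Another NFKB2 window, chr10:102395455-102395754, held 2 matches, and the NFKB1 window chr4:102501109-102501408 held 1, which began 49 bases before the start site. The remaining NFKB2 window, chr10:102393860-102394159, and the other NFKB1 window, chr4:102501684-102501983, held no match. A window with 2 or more matches is rare, at 2.04% of all windows. A match is a run of letters and not a measured binding site.

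The values are normalized counts, the reads assigned to a gene after scaling of the libraries to a common level by the authors. The libraries summed to between 21347352 and 31681834 normalized counts, and genes of the mitochondrial genome took 5.51% to 11.2% of a library. That share was 7.26% to 7.48% in the MCF10A controls and 7.11% to 11.2% in the MCF10A libraries labelled knockdown, 8.02% to 11.2% against 6.47% to 8.33% in MCF10AT1, and 6.31% to 7.33% against 5.51% to 6.89% in MCF10CA1h, and its part in the results was not tested. Setting all libraries to equal sums instead shifted the median log2 difference over all genes in MCF10AT1 from 0.02 to -0.15, and in the comparison of the MCF10AT1 and MCF10A controls from -0.014 to -0.15. It shifted the median contrast between MCF10AT1 and MCF10A from -0.0045 to -0.26 and that between MCF10CA1h and MCF10A from -0.027 to -0.17, and the median of the MCF10CA1h against the MCF10AT1 controls from 0.047 to 0.16. METTL3 itself (chr14:21498133-21511342, minus strand) was at 752, 686 and 459 in the MCF10A controls and 939, 981 and 509.8 in the MCF10A libraries labelled knockdown, replicates a, b and c in order, so its transcript was not lower there. It was at 968, 1016 and 805 against 816, 752 and 902 in MCF10AT1, where the arms overlapped, and at 1022, 1102 and 1280.4 against 825, 745 and 843 in MCF10CA1h, where they did not. Set against the control mean, its mean in the libraries labelled knockdown was 128% for MCF10A, 88.5% for MCF10AT1 and 70.8% for MCF10CA1h. Exact two-sided permutation tests gave p = 0.5, 0.3 and 0.1, where 0.1 is the smallest p that 3 against 3 libraries allow. By limma, the test used below for all genes, METTL3 had a log2 difference of 0.33 ± 0.30, adjusted p = 0.618 in MCF10A and -0.17 ± 0.26, adjusted p = 0.707 in MCF10AT1, and it fell in MCF10CA1h (-0.49 ± 0.12, adjusted p = 0.0234). That call was lost without control replicate c (adjusted p = 0.0906), without replicate b labelled knockdown (0.0854), without the intensity trend (0.0742) and in a joint fit of the 18 libraries (0.501). The study checked METTL3 protein by Western blotting, which is not analysed here. By real-time PCR it also reports METTL3 mRNA as decreased in the knockdown lines, though by less than the protein. The MCF10A libraries here did not show that decrease. An edit in an exon need not change the amount of transcript, so the transcript levels check the labels only in part. Each of the 20 breast epithelial markers had a mean of at least 10 in every group, apart from KRT19 in all but the MCF10AT1 controls, GRHL2 in MCF10CA1h and ESRP1 in the MCF10AT1 libraries labelled knockdown. The leukocyte markers PTPRC, CD3E and SPI1, the endothelial markers CDH5 and VWF and the melanocyte markers DCT and SOX10 had group means under 10 in every group. Other genes of these lists were present, among them CD14, with group means from 62.6 to 2075, CD68 (185 to 1140), PECAM1 (43.4 to 517) and MITF (42.6 to 131).

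Within each line, the libraries labelled knockdown were compared with the controls, to ask which NF-kB genes differ when METTL3 is targeted. In MCF10AT1, RELB, NFKB2 and NFKBIE rose, the non-canonical pair of subunits with 1 inhibitor. In MCF10CA1h, NFKBIE and BIRC3 rose by smaller amounts, and in MCF10A the rise of the low transcript TNFRSF11B was the 1 call. The test was limma on log2(normalized count + 1) over genes with a mean of at least 10, with Benjamini-Hochberg adjustment over all genes tested and a threshold of 0.05, and all 10 genes passed that filter in each line. So 1 of 10 was called in MCF10A, 3 of 10 in MCF10AT1 and 2 of 10 in MCF10CA1h, all higher, where 2.65%, 13.0% and 12.8% of all genes tested were called. Of all genes tested, 1.16% were called higher and 1.49% lower in MCF10A, 7.07% and 5.96% in MCF10AT1, and 7.91% and 4.85% in MCF10CA1h. The median log2 difference of the 10 in MCF10A was -0.021 (-0.0035 over all genes tested), that in MCF10AT1 0.44 (0.021 over all) and that in MCF10CA1h 0.36 (-0.019 over all). In bulk libraries, fewer cells that hold a transcript and less of the transcript per cell cannot be told apart.

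**Figure D1:**
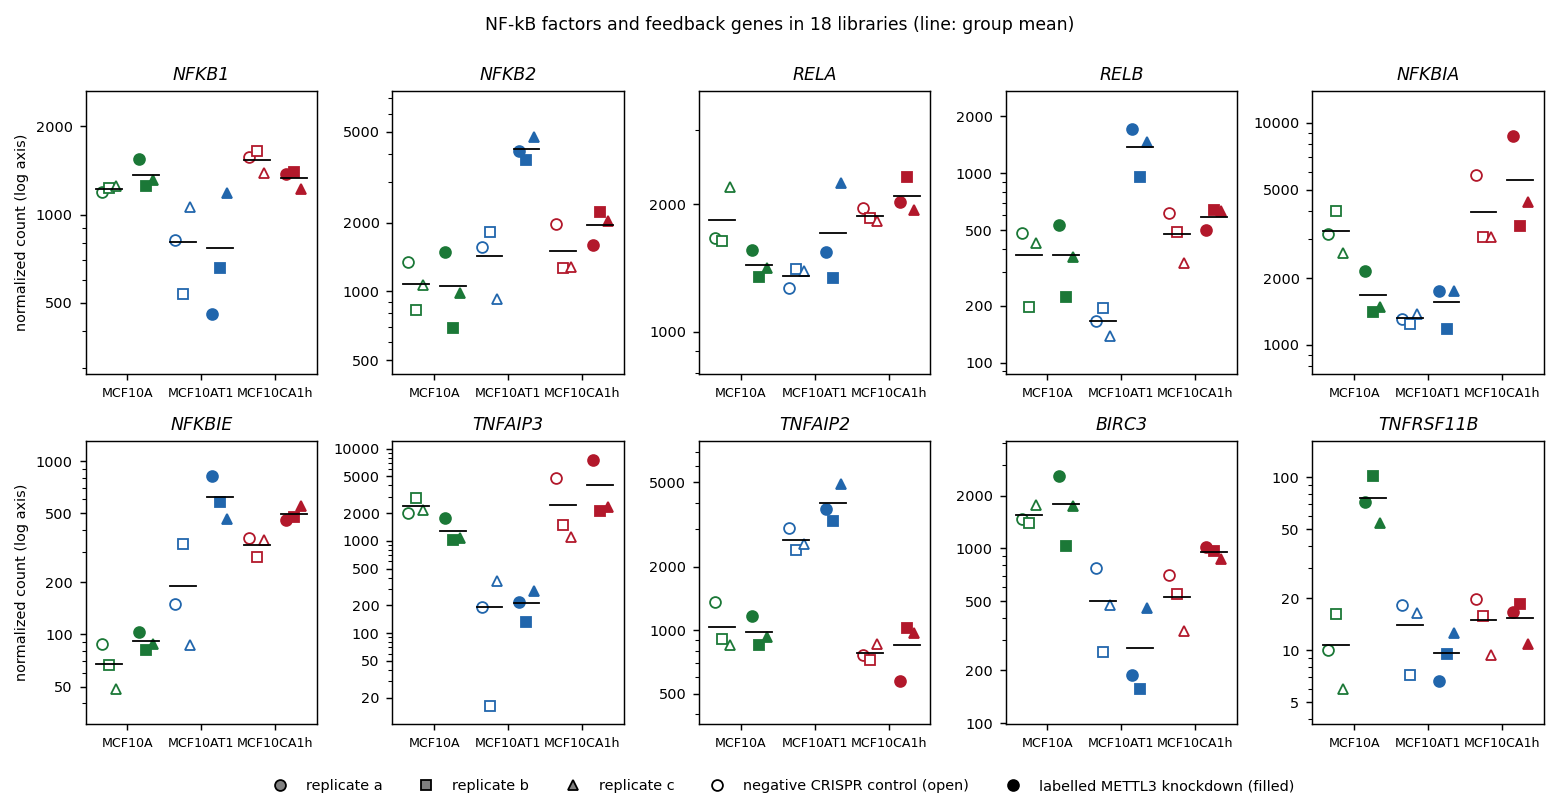
Normalized counts (log axis) of the 10 genes in each of the 18 libraries, by cell line, with open symbols for the controls, filled symbols for the libraries labelled knockdown, shapes for replicates a, b and c, and a line at each group mean. The 3 MCF10AT1 libraries labelled knockdown lie above all others for NFKB2 and RELB, and replicate a lies highest in both arms of MCF10CA1h for NFKBIA and TNFAIP3.

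RELB (chr19:45001461-45038192, plus strand) encodes the subunit that partners with p52 in the non-canonical branch. It was at 166, 195 and 139 in the MCF10AT1 controls and at 1703, 954 and 1464 in the MCF10AT1 libraries labelled knockdown. The lowest library labelled knockdown lay well above the highest control, and the log2 difference was 3.01 ± 0.33, adjusted p = 7.3e-04, an 8.04-fold rise. RELB stayed past the threshold without any 1 of the 6 libraries, with adjusted p between 0.00179 and 0.00658, and without both libraries of any letter. In MCF10A it was at 486, 196 and 428 in the controls and 530.2, 221 and 360.4 in the libraries labelled knockdown, which overlapped (log2 difference 0.018 ± 0.42). The MCF10CA1h values were 615, 487 and 338 and 501, 637 and 631, which also overlapped (log2 difference 0.33 ± 0.21, adjusted p = 0.329). By mean level the MCF10AT1 libraries labelled knockdown came first (1373 ± 383, SD, n = 3) and the MCF10AT1 controls last (167 ± 28.2), each apart from its neighbor, while the 4 other groups overlapped with their neighbors between 369.8 and 589.8. The MCF10AT1 controls were apart only by a near tie, with 195.23 just below the lowest MCF10A control at 195.8.

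NFKB2 (chr10:102394110-102402524, plus strand) encodes p100, which is cut to p52 and also acts as an IkB-like inhibitor, and its promoter window with 3 kappaB matches is shown above. It was at 1559, 1817 and 922 in the MCF10AT1 controls and 4104, 3746 and 4725 in the libraries labelled knockdown. The groups did not overlap, and the log2 difference was 1.60 ± 0.31, adjusted p = 0.0123, a 3.03-fold rise. The call was lost without replicate b of the libraries labelled knockdown (adjusted p = 0.0542), and held without each of the other 5 libraries. It was also lost without both libraries of letter a (0.163) and of letter b (adjusted p = 0.0525). In MCF10A the values were 1346, 828 and 1071 against 1488, 693 and 988, a log2 difference of -0.076 ± 0.30 that was 0.013 with equal sums per library. In MCF10CA1h they were 1965, 1268 and 1272 against 1590.1, 2219 and 2035, which overlapped (log2 difference 0.39 ± 0.18, adjusted p = 0.193), and without control replicate a the difference passed the threshold (log2 difference 0.60, adjusted p = 0.0468). The MCF10AT1 libraries labelled knockdown stood alone at the top (4192 ± 495, SD, n = 3), and every other group overlapped with its neighbor in the order.

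The canonical subunits did not pass the threshold in any line. NFKB1 (chr4:102501330-102617302, plus strand) encodes p105, the precursor of p50. It was at 1190.2, 1233 and 1251 in the MCF10A controls and 1545, 1249.7 and 1309 in the libraries labelled knockdown, which just overlapped (log2 difference 0.15 ± 0.15, adjusted p = 0.639). In MCF10AT1 it was more scattered, at 817, 538 and 1063 against 457, 658 and 1187, with replicate c highest in both arms (log2 difference -0.13 ± 0.42, adjusted p = 0.875). The MCF10CA1h values were 1572, 1649 and 1386 against 1374, 1395 and 1225, where the lowest control fell below the highest library labelled knockdown (log2 difference -0.20 ± 0.11, adjusted p = 0.25). RELA (chr11:65653599-65663090, minus strand) encodes p65, the main activating subunit. It was at 1668, 1638 and 2195 in the MCF10A controls and 1562, 1345 and 1410.3 in the libraries labelled knockdown, which did not overlap, yet the log2 difference of -0.34 ± 0.16 had an adjusted p of 0.324. In MCF10AT1 it was at 1268, 1408 and 1389.7 against 1541, 1336 and 2251 (log2 difference 0.30 ± 0.28, adjusted p = 0.535). Its MCF10CA1h values were 1957, 1861 and 1824 against 2024, 2322 and 1936 (log2 difference 0.15 ± 0.10, adjusted p = 0.366), and the arms overlapped in these last lines. RELA varied least over the groups by the ratio of its means, with means from 1355 to 2094 and overlap between all neighbors in the order. For NFKB1 the groups of MCF10AT1, at 806 ± 263 (SD, n = 3) in the controls and 768 ± 377 in the libraries labelled knockdown, lay apart from and below the other 4, which overlapped with their neighbors. The libraries labelled knockdown were apart only by a near tie, with replicate c at 1187.45 just below the lowest MCF10A control at 1190.19.

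Of the inhibitors, NFKBIE rose in MCF10AT1 and MCF10CA1h, and NFKBIA passed the unblocked test in none of the 3 lines, with all libraries in. NFKBIE (chr6:44258166-44265788, minus strand), the gene of IkB epsilon, was at 149.8, 330.4 and 87.1 in the MCF10AT1 controls and 818, 580.0 and 463 in the libraries labelled knockdown. The groups did not overlap, and the log2 difference was 1.88 ± 0.50, adjusted p = 0.0436, a 3.69-fold rise. It kept the call only without control replicate b (adjusted p = 0.00945) and was lost without control replicate a (0.143), control replicate c (0.0803) and replicates a, b and c labelled knockdown (adjusted p = 0.149, 0.143 and 0.0612), and without the intensity trend (adjusted p = 0.0704). In MCF10CA1h NFKBIE was at 360.1, 279 and 350.0 against 458, 475 and 550.3, again without overlap, with a log2 difference of 0.59 ± 0.15, adjusted p = 0.0282. That call held without replicate a labelled knockdown alone of the 6 libraries, with adjusted p between 0.0514 and 0.0978 without each of the other 5. Without the intensity trend its adjusted p was 0.0681, and in a joint fit of the 18 libraries it was 0.701. In MCF10A NFKBIE was low in both arms, at 87.7, 66.2 and 48.4 against 104, 81.5 and 88.2 (log2 difference 0.46 ± 0.31, adjusted p = 0.482). By mean level the libraries labelled knockdown of MCF10AT1 and MCF10CA1h came first and overlapped, and lay apart from the MCF10CA1h controls, below which every group overlapped with its neighbor.

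NFKBIA (chr14:35401079-35404749, minus strand), the gene of IkB alpha, was at 3158, 4008 and 2602 in the MCF10A controls and 2155, 1400.0 and 1487 in the libraries labelled knockdown. Every library labelled knockdown lay below every control, at a log2 difference of -0.96 ± 0.22 and an adjusted p of 0.0668, which missed the threshold. With replicate letters as a block, NFKBIA fell in MCF10A (adjusted p = 0.025), where 7.60% of all genes were called. The letters pair the libraries of this line over all genes. For NFKBIA itself, letter b was the highest of the controls and the lowest of the libraries labelled knockdown. It also passed without control replicate a (adjusted p = 0.0485). In MCF10AT1 it was at 1315, 1248 and 1382 against 1746, 1179.5 and 1744, overlapping (log2 difference 0.22 ± 0.27, adjusted p = 0.639). The MCF10CA1h values were 5835, 3042 and 3059.8 against 8701, 3442 and 4387 (log2 difference 0.42 ± 0.33, adjusted p = 0.444). There the replicate a of each arm stood far above b and c, and the arms overlapped. With the letter block NFKBIA passed in MCF10CA1h (adjusted p = 0.0397), where 1876 of 15127 genes were called. By mean level MCF10CA1h came first, at 5509.8 ± 2804 (SD, n = 3) in the libraries labelled knockdown and 3979 ± 1607 in the controls, overlapping with the MCF10A controls, and the 3 other groups followed, apart from these and overlapping among neighbors.

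TNFAIP3 (chr6:137867214-137883314, plus strand), the gene of A20, which removes and builds ubiquitin chains to end signalling, had the widest range of the set, from 16.3 to 7631. In the MCF10A controls it was at 2033, 2953 and 2140.0 and in the libraries labelled knockdown at 1782, 1023 and 1075, without overlap (log2 difference -0.90 ± 0.25, adjusted p = 0.1, and 0.0587 with the letter block). In MCF10AT1 it was at 194, 16.3 and 366 against 215, 130.5 and 287, where control replicate b was far below the rest (log2 difference 0.91 ± 1.01, adjusted p = 0.606). Without that control library the log2 difference in MCF10AT1 was -0.41, the other sign. In MCF10CA1h it was at 4842, 1484 and 1104 against 7631, 2088 and 2305, with replicate a of each arm the highest (log2 difference 0.74 ± 0.56, adjusted p = 0.437). With the letter block that difference was 0.74 ± 0.13, adjusted p = 0.0064, where 1876 of 15127 genes were called. Both groups of MCF10AT1 lay below all 4 others, and the 3 MCF10A controls did not overlap with the MCF10A libraries labelled knockdown.

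BIRC3 (chr11:102317484-102339403, plus strand) encodes cIAP2, a ubiquitin ligase that restrains cell death at the tumor necrosis factor receptor and holds the non-canonical kinase NIK in check. In MCF10CA1h it was at 705, 546 and 335 in the controls and 1022, 973 and 871 in the libraries labelled knockdown, without overlap. The log2 difference was 0.91 ± 0.23, adjusted p = 0.0262, a 1.88-fold rise. The call was lost without replicates a, b and c labelled knockdown (adjusted p = 0.0646, 0.0839 and 0.0524), without the intensity trend (0.105) and in the joint fit (0.487), and held without each control. In MCF10AT1 it was at 778, 254 and 473 against 188, 157 and 458, overlapping (log2 difference -0.93 ± 0.54, adjusted p = 0.309). In MCF10A it was at 1468, 1406 and 1778 against 2589, 1038 and 1750.3, and here the libraries labelled knockdown spread around the controls on both sides (log2 difference 0.12 ± 0.30, adjusted p = 0.882). The order of mean levels ran from MCF10A over MCF10CA1h to MCF10AT1, with the MCF10CA1h libraries labelled knockdown apart from the MCF10A controls above and from the MCF10CA1h controls below.

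TNFAIP2 (chr14:103121476-103137439, plus strand), a gene known to be induced by tumor necrosis factor in endothelial cells, was at 3041, 2390.0 and 2551 in the MCF10AT1 controls and 3753, 3299.6 and 4928 in the libraries labelled knockdown. The arms did not overlap, but the log2 difference of 0.57 ± 0.27 had an adjusted p of 0.207. In MCF10A it was at 1353, 909 and 846 against 1163, 851 and 927 (log2 difference -0.060 ± 0.22, and 0.028 with equal sums per library). In MCF10CA1h it was at 758, 718 and 855 against 571, 1019 and 970.0, where replicate a was the lowest library labelled knockdown (log2 difference 0.093 ± 0.20, adjusted p = 0.805). Both MCF10AT1 groups lay above all others, the libraries labelled knockdown at 3993 ± 840.2 (SD, n = 3) and the controls at 2661 ± 339.

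TNFRSF11B (chr8:118923557-118951885, minus strand) encodes osteoprotegerin, a secreted decoy receptor for RANKL and TRAIL. It was at 9.98, 16.2 and 5.95 in the MCF10A controls and 71.7, 102 and 54.6 in the libraries labelled knockdown. All 3 libraries labelled knockdown lay above every other library of the series, and the log2 difference was 2.77 ± 0.45, adjusted p = 0.0228, a 6.82-fold rise on the scale of the value plus 1. The level is low, and the call was lost without control replicate b (adjusted p = 0.0501) and without replicates a, b and c labelled knockdown (0.102, 0.0893 and 0.0752). In MCF10AT1 it was at 18.2, 7.20 and 16.3 against 6.60, 9.54 and 12.7 (log2 difference -0.44 ± 0.66, adjusted p = 0.708). In MCF10CA1h it was at 19.7, 15.8 and 9.43 against 16.6, 18.5 and 10.8 (log2 difference 0.055 ± 0.44). The groups outside the MCF10A libraries labelled knockdown overlapped, each with its neighbor in the order.

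**Figure D2:**
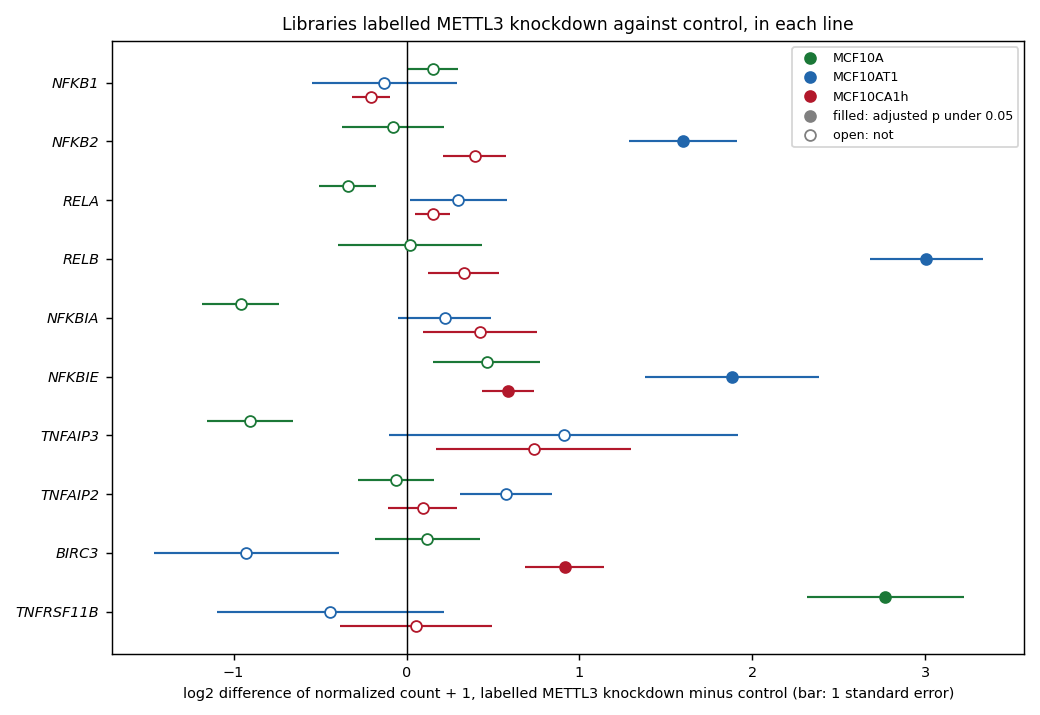
Log2 difference of the normalized count plus 1 between the libraries labelled knockdown and the controls of each line, for the 10 genes, with bars of 1 standard error from limma and filled points for an adjusted p under 0.05. RELB, NFKB2 and NFKBIE in MCF10AT1, NFKBIE and BIRC3 in MCF10CA1h and TNFRSF11B in MCF10A are filled.

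Marker lists of other cell types were set beside these calls, since several moved with the labels. Of 20 epithelial markers, 14 were lower and 0 higher in the MCF10AT1 libraries labelled knockdown, with CDH1, the gene of E-cadherin, at a log2 difference of -6.79 and ESRP1, an epithelial splicing factor, at a mean of 2302 in the controls and 9.46 in the libraries labelled knockdown. Of 13 fibroblast or mesenchymal markers 9 were tested and 5 were higher, 0 lower. COL6A2 was listed at 0 in all MCF10AT1 controls and had a mean of 1116 in the libraries labelled knockdown. The summed level of the 20 epithelial markers was 213305 to 284839 in the controls and 110910 to 206701 in the libraries labelled knockdown, and that of the mesenchymal markers 517 to 811 against 12641 to 13294, while COL1A2, LUM, PDGFRA and POSTN stayed under a mean of 10. In MCF10CA1h 8 of 18 epithelial markers tested were higher and 0 lower, with sums of 458819 to 474766 against 682847 to 796462, and 3 of 11 mesenchymal markers were higher and 1 lower, with sums of 2480 to 2868 against 4661 to 4966. In MCF10A 2 of 19 epithelial markers were higher and 1 lower, with sums of 599340 to 1068227 in the controls and 554036 to 591549 in the libraries labelled knockdown, and 0 of 6 mesenchymal markers passed by limma, of which 6 had an unadjusted p under 0.05, with sums of 2024 to 2387 against 1695 to 4772. Leukocyte markers were called for 0 of 3 tested in MCF10A and 0 of 4 in MCF10AT1 by limma, with 3 and 2 at an unadjusted p under 0.05, and 2 of 3 were higher and 1 lower in MCF10CA1h. Of all genes tested, 2839 of 15416 in MCF10A and 4425 of 16050 in MCF10AT1 had an unadjusted p under 0.05. The summed level of the 7 leukocyte markers with a value did not overlap between the arms of MCF10A, at 838 to 2258 in the controls and 338 to 614 in the libraries labelled knockdown, nor between those of MCF10AT1, at 868 to 1607 and 2008 to 2979, and was 894 to 1009 and 921 to 1141 in MCF10CA1h. The endothelial sums were 56 to 237 against 339 to 536 in MCF10A, 235 to 867 against 385 to 648 in MCF10AT1 and 133 to 169 against 53 to 79 in MCF10CA1h, where 1 of 3 endothelial markers was lower. The melanocyte sums were 64 to 79 against 84 to 154, 93 to 254 against 48 to 59 and 94 to 123 against 133 to 158 in the same order of lines. The part of these markers in the NF-kB results was not tested.

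Whether the differences in METTL3-targeted cells differed between the lines was tested as contrasts of differences in 1 fit of all 18 libraries. The differences of RELB and NFKB2 were larger in MCF10AT1 than in MCF10A, and that of TNFRSF11B was smaller. For RELB the contrast was 2.99 ± 0.51, adjusted p = 4.7e-04, for NFKB2 1.67 ± 0.42, adjusted p = 0.00818 and for TNFRSF11B -3.21 ± 0.67, adjusted p = 0.00237, so 3 of 10 were called where 21.6% of all genes were. These held without any 1 of the 18 libraries, with adjusted p of at most 0.0249. The median contrast of the 10 genes was 0.91, against -0.0045 over all genes tested. With the letter block, taken to pair the libraries in these lines but less clearly in MCF10AT1, NFKBIA (contrast 1.18, adjusted p = 0.00639) and NFKBIE (contrast 1.42, adjusted p = 0.0298) joined them, each higher in MCF10AT1, which made 5 where 28.9% of all genes were called. Without the block, NFKBIE also passed without MCF10A control replicate c (0.0488), MCF10AT1 control replicate b (0.00239) or MCF10AT1 replicate c labelled knockdown (adjusted p = 0.0428), NFKBIA without MCF10CA1h replicate a labelled knockdown (0.0363) and RELA without MCF10AT1 replicate b labelled knockdown (0.0415).

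MCF10CA1h differed from MCF10A in TNFRSF11B (-2.71 ± 0.67, adjusted p = 0.0257), so 1 of 10 was called where 5.34% of all genes were. That call held in 12 of the 18 fits that left out 1 library. It was lost without MCF10A control replicate c (adjusted p = 0.0788), MCF10A replicates a and b labelled knockdown (0.0609 and 0.0664), MCF10CA1h control replicates a and b (0.0789 and 0.0623) and MCF10CA1h replicate c labelled knockdown (0.07). NFKBIA (contrast 1.38 ± 0.45, adjusted p = 0.0929) passed without MCF10CA1h control replicate a (adjusted p = 0.046). With the letter block it passed too (adjusted p = 0.00847), where 8.07% of all genes were called. Over all genes the letters do not pair the MCF10CA1h libraries. The median contrast of the 10 was 0.39, against -0.027 over all genes. MCF10CA1h differed from MCF10AT1 in RELB (-2.68 ± 0.51, adjusted p = 0.0014) and BIRC3 (1.84 ± 0.61, adjusted p = 0.0469), so 2 of 10 were called where 18.2% of all genes were. RELB kept the call in all 18 fits that left out 1 library, and BIRC3 in 5, those without MCF10A replicates a and b labelled knockdown, MCF10AT1 control replicate b, MCF10AT1 replicate c labelled knockdown and MCF10CA1h control replicate a, while without any other library its adjusted p was between 0.0543 and 0.128. NFKB2 (contrast -1.21 ± 0.42, adjusted p = 0.0561) passed without MCF10A replicates a and b labelled knockdown (0.0413 and 0.0435) and MCF10AT1 control replicate b (0.0237), and with the letter block (adjusted p = 0.0313), where 24.8% of all genes were called. The median contrast of the 10 was -0.16, against -0.011 over all genes. NFKBIE, called in MCF10AT1 and in MCF10CA1h, missed the threshold for a difference between them with all libraries in and no block (contrast -1.30 ± 0.52, adjusted p = 0.102), and passed it without MCF10AT1 control replicate b (adjusted p = 0.00481) and with the letter block (0.049). Each pair of these contrasts shares the libraries of a line, so they are not independent of each other.

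Between the controls, the 10 genes were compared to see where the control cells of the lines stand without METTL3 targeting, in 1 fit of the 9 control libraries. The study used a single negative CRISPR line for each cell line, so a difference between lines cannot be told apart from one between clones. NFKBIA, TNFAIP3 and BIRC3 were lower in the MCF10AT1 controls than in those of MCF10A and TNFAIP2 was higher. The log2 differences were -1.29 ± 0.27, adjusted p = 0.011 for NFKBIA, -4.45 ± 0.98, adjusted p = 0.0123 for TNFAIP3, -1.76 ± 0.40, adjusted p = 0.0138 for BIRC3 and 1.38 ± 0.22, adjusted p = 0.00348 for TNFAIP2. So 1 gene was called higher and 3 lower, where 28.1% of all genes tested were called, 13.3% higher and 14.7% lower. NFKBIA was lost without MCF10A control replicate b (adjusted p = 0.0515) and BIRC3 without MCF10A control replicate c (0.0572). For TNFAIP3 the size turned on 1 library, since without MCF10AT1 control replicate b, at 16.3, the log2 difference was -3.13. RELB was lower in MCF10AT1 than in MCF10A, where the groups only just did not overlap (195.23 against 195.8 in replicate b of each). It missed the threshold (-1.05 ± 0.37, adjusted p = 0.0578), and passed it with equal sums per library (-1.19, adjusted p = 0.043) and without MCF10A control replicate b (0.0277). Without MCF10AT1 control replicate c, NFKB1 (adjusted p = 0.00663) and NFKBIE (0.00545) passed as well. The median of the 10 was -0.54, against -0.014 over all genes tested.

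MCF10CA1h controls against MCF10A controls showed NFKBIE higher (2.30 ± 0.45, adjusted p = 0.00418) and BIRC3 lower (-1.61 ± 0.40, adjusted p = 0.0123), which is 1 gene in each direction where 37.8% of all genes were called, 19.0% higher and 18.8% lower. BIRC3 was lost without MCF10CA1h control replicate c (adjusted p = 0.0538). Against the MCF10AT1 controls, the MCF10CA1h controls had more TNFAIP3 (4.22 ± 0.98, adjusted p = 0.015), NFKBIA (1.53 ± 0.27, adjusted p = 0.00481), RELB (1.49 ± 0.37, adjusted p = 0.0199) and NFKB1 (0.98 ± 0.24, adjusted p = 0.0201), and less TNFAIP2 (-1.77 ± 0.22, adjusted p = 7.5e-04). That is 4 genes higher and 1 lower, where 21.8% of all genes were called, 11.0% higher and 10.8% lower. TNFAIP3 was lost without MCF10CA1h control replicate a (adjusted p = 0.0639), and its log2 difference was 2.90 without MCF10AT1 control replicate b. RELB was lost without MCF10AT1 control replicate a (0.0597) and MCF10CA1h control replicates a and b (0.0852 and 0.0719). NFKB1 was lost without MCF10AT1 control replicate a (0.0535) and each of MCF10CA1h control replicates a, b and c (0.074, 0.082 and 0.053). NFKBIE passed without MCF10AT1 control replicate b (adjusted p = 0.0145). The medians of the 10 were 0.28 against MCF10A and 0.73 against MCF10AT1, where those over all genes were -0.057 and 0.047. Each control group enters 2 of these contrasts, and also the comparison with its own libraries labelled knockdown.

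The order of replicates within a group had a pattern of its own, although letters carry no order. In MCF10CA1h, replicate a was the highest library in both arms for NFKBIA, TNFAIP3 and BIRC3, and for 12 of 26 NF-kB target genes (46.2%), while 9.45% of all genes with a mean of at least 10 had replicate a highest in both arms. In MCF10AT1, replicate b was the lowest in both arms for NFKBIA, TNFAIP3, TNFAIP2 and BIRC3 and for 8 of the 26 targets (30.8%), against 14% of all genes. In MCF10A, replicate a was the highest in both arms for NFKB2, RELB, NFKBIE and TNFAIP2 and for 11 of the 26 targets (42.3%), against 17.4% of all genes, and replicate b the lowest for NFKB2, RELA, RELB and BIRC3 and for 9 of the targets (34.6%), against 12.9%. Among the MCF10A libraries labelled knockdown, replicate a was the highest for 9 of the 10 genes and replicate b the lowest for 9. The share of all genes with that order within this arm alone was not counted. So the order is not shown to be particular to these genes. What the letters stand for is not given in the labels, and no cause was tested.

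Over the 18 libraries, TNFAIP3 varied with NFKBIA (Pearson r = 0.82 of the log2 values) and RELB with NFKB2 (r = 0.81), while TNFAIP3 and TNFAIP2 varied in opposite ways (r = -0.80). The points share 3 lines and 6 groups, so these values describe the pattern over groups as much as that over libraries. In the plot of pairs, the 3 MCF10AT1 libraries labelled knockdown set the upper end for NFKB2 and RELB. The 3 MCF10AT1 controls have the lowest RELB values of the 18, the highest of them nearly tied with an MCF10A control. The genes with the most similar pattern over the 18 libraries, of 15897 with a mean of at least 10, were SCAP (0.96) and ZNF384 (0.95) for NFKB1, FBRS (0.96) and NOMO2 (0.94) for NFKB2, and SPRYD3 (0.86) and ATXN2 (0.86) for RELA. For RELB they were PLPP1 (0.92) and CFB (0.91), for NFKBIA CSF2 (0.88) and CXCL3 (0.88), for NFKBIE POLR2L (0.98) and CBR3 (0.98), and for TNFAIP3 PTGS2 (0.97) and MANSC1 (0.93), each with its Pearson r. VASN (0.96) and FER1L4 (0.95) came first for TNFAIP2, LINC02958 (0.93) and ARFGEF1 (0.93) for BIRC3, and SPTLC3 (0.86) and ZNF462 (0.85) for TNFRSF11B. CFB, CSF2, CXCL3 and PTGS2 stand in the list of NF-kB targets used here.

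**Figure D3:**
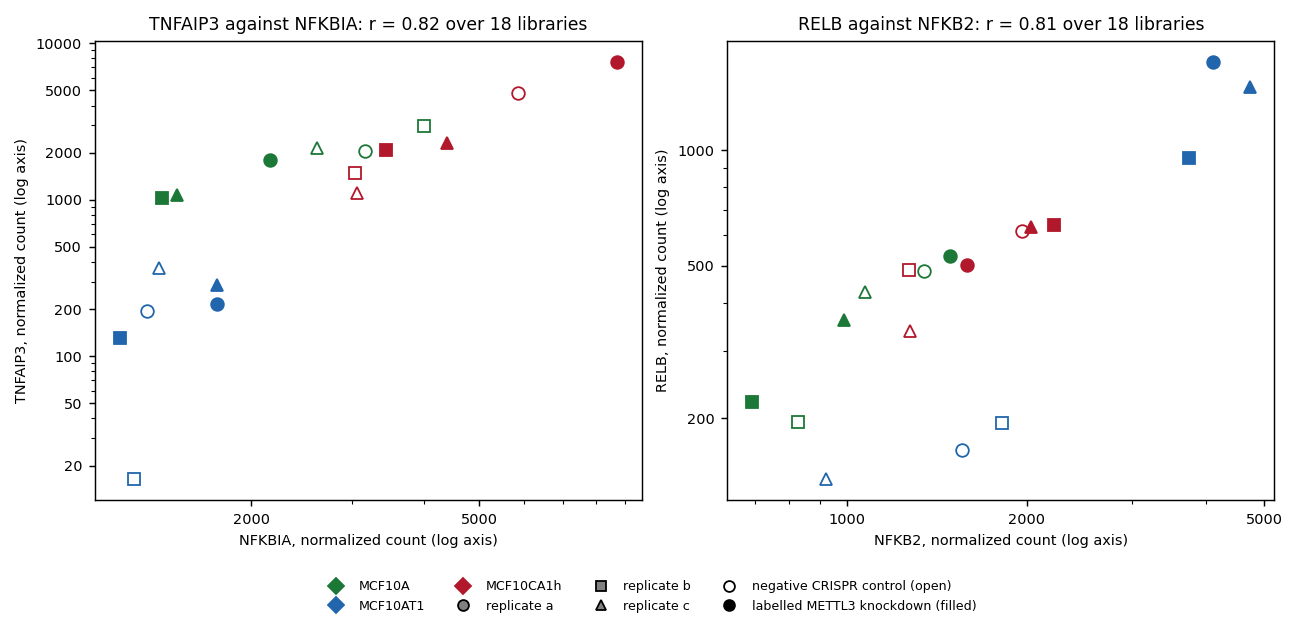
Normalized counts (log axes) of TNFAIP3 against NFKBIA (left) and RELB against NFKB2 (right) in the 18 libraries, with colors for the lines, open symbols for controls, filled symbols for libraries labelled knockdown and shapes for replicates. Pearson r of the log2 values is 0.82 and 0.81, and the MCF10AT1 libraries labelled knockdown lie at the upper right for RELB and NFKB2.

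The rest of the pathway was read from 90 further genes in 6 lists by role, of which 87 had a value. In MCF10A 70 of them were tested, and 17 of the 70 had an unadjusted p under 0.05 by limma, where 2839 of all 15416 genes did. After adjustment 0 were higher and 3 lower, where 1.16% and 1.49% of all genes were called. These were IL1B, a ligand, at 902, 1418 and 3392 in the controls and 228, 268 and 239.9 in the libraries labelled knockdown (log2 difference -2.73 ± 0.42, adjusted p = 0.0184), and the targets LCN2, an iron-binding defence protein (-2.63 ± 0.49, adjusted p = 0.0356), and CXCL8, a neutrophil chemokine (-2.42 ± 0.45, adjusted p = 0.0338). Without the intensity trend 0 of the 70 were called by limma, 15 with an unadjusted p under 0.05, and IL1B, LCN2 and CXCL8 had adjusted p of 0.055, 0.0644 and 0.079. Of all 15416 genes 237 were then called, and 2681 had an unadjusted p under 0.05. With the letter block, which pairs the libraries of this line, 10 genes were called, 1 higher and 9 lower, where 2.84% and 4.76% of all genes were. Without MCF10A control replicate a 9 genes were called, without control replicate b 0 (13 at an unadjusted p under 0.05), and without control replicate c or replicates b or c labelled knockdown 1. Of all genes, 1418 of 15419 were called without control replicate a. Without control replicate b 86 of 15422 were called, and 2239 had an unadjusted p under 0.05. The median over the 70 genes was -0.098, against -0.0035 over all genes tested.

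In MCF10AT1 73 were tested, 20 were higher and 2 lower, where 7.07% and 5.96% of all genes were called. Of 26 targets tested 15 were higher and 0 lower, with a median log2 difference of 2.39 against 0.021 over all genes. ICAM1, the leukocyte adhesion receptor, went from 3.34, 3.12 and 9.21 in the controls to 4121, 8163 and 14585, PTX3, a soluble pattern recognition protein, from 0, 3.52 and 1.71 to 87.2, 203 and 219, and CXCL1, a chemokine, from 155, 76.4 and 78.5 to 4762, 2039 and 2733. Their log2 differences were 10.44 ± 0.56, adjusted p = 3.2e-05, 6.10 ± 0.74, adjusted p = 0.00123 and 4.92 ± 0.42, adjusted p = 2.4e-04. VCAM1, another adhesion receptor, was listed at 0 in all 3 controls and at 26.9, 59.0 and 43.9 in the libraries labelled knockdown.

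Of 18 receptors and adaptors tested in MCF10AT1, TNFRSF1A, the main receptor of tumor necrosis factor (2.26 ± 0.26, adjusted p = 8.7e-04), and IL1R1, the receptor of interleukin 1 (1.95 ± 0.42, adjusted p = 0.0192), rose, the latter not with equal sums (adjusted p = 0.0663), and TLR5, the flagellin receptor (-2.88 ± 0.71, adjusted p = 0.0318), and TNFRSF11A, the RANKL receptor (-2.40 ± 0.59, adjusted p = 0.0331), fell. TLR5 and TNFRSF11A lost the call with no filter on low values (adjusted p = 0.0627 and 0.0523). Of 10 genes in the list of kinases and their partner proteins, IKBKE (2.60 ± 0.43, adjusted p = 0.00578) and IKBKG, the regulatory subunit NEMO (1.39 ± 0.28, adjusted p = 0.0146), rose and 0 fell. TNIP1, an A20-binding inhibitor, rose (1.94 ± 0.32, adjusted p = 0.00516) among 9 other negative regulators. Of 5 ligands and 5 other subunits and IkB proteins tested, 0 passed by limma, and 2 and 0 of them had an unadjusted p under 0.05, where 4425 of all 16050 genes did. With the letter block, taken to pair the libraries of this line though not clearly, 34 genes were called, 26 higher and 8 lower, where 24.5% of all genes were, 13.0% higher and 11.6% lower. With equal sums 17 were called, 14 higher and 3 lower, where 1912 of all 15825 genes were, 913 higher and 999 lower. Without MCF10AT1 control replicate a 11 were called and without replicates a and b labelled knockdown 14 and 12. Of all genes, 1125 of 16063, 1355 of 15897 and 1020 of 16062 were called in these fits, in that order. The epithelial and mesenchymal markers moved with these calls too, and their part was not tested.

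In MCF10CA1h 72 were tested, 25 were higher and 1 lower, where 7.91% and 4.85% of all genes were called. Of 26 targets tested 14 were higher and 0 lower, with a median of 1.00 against -0.019 over all genes. The chemokines CXCL10 (3.50 ± 0.58, adjusted p = 0.00383), CCL5 (3.41 ± 0.41, adjusted p = 6.4e-04) and CCL20 (2.83 ± 0.29, adjusted p = 2.5e-04) and the growth factor CSF2 (2.33 ± 0.53, adjusted p = 0.017) led. For this line the study reports interferon alpha and gamma response as the most affected Hallmark sets. The part of interferon response in these calls was not tested. CCL20 went from 642, 301 and 269.7 in the controls to 2980.1, 3073 and 2068, and CXCL10 from 19.9, 3.55 and 15.1 to 229, 74.3 and 128. All 5 ligands tested were higher, led by IL1B at 1324, 679.6 and 553 in the controls and 7383, 5931 and 4439 in the libraries labelled knockdown (2.87 ± 0.29, adjusted p = 2.3e-04) and IL1A (2.26 ± 0.20, adjusted p = 1.3e-04), then TNFSF14 (1.97 ± 0.35, adjusted p = 0.00537) and TNFSF10, the gene of TRAIL (1.63 ± 0.32, adjusted p = 0.0092).

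Of 17 receptors and adaptors tested in MCF10CA1h, the adaptors MYD88 (1.15 ± 0.12, adjusted p = 3.6e-04) and TRADD (0.57 ± 0.14, adjusted p = 0.0292) rose and 0 fell. Among the 10 kinases and partner proteins IKBKE rose (0.80 ± 0.18, adjusted p = 0.019) and CHUK, the gene of IKK alpha, fell (-0.52 ± 0.15, adjusted p = 0.0444). NFKBID, a nuclear IkB protein (0.66 ± 0.13, adjusted p = 0.00995), TNIP1 (0.89 ± 0.16, adjusted p = 0.00505) and CYLD, a deubiquitinase that ends signalling (0.48 ± 0.12, adjusted p = 0.0257), rose. Without the intensity trend 15 of the 72 were called, not CSF2 (adjusted p = 0.0871), TNIP1 (0.0504), IKBKE (0.0764) and CHUK (0.0998), and in the joint fit of the 18 libraries, where the lines share 1 estimate of the spread, 3. Of all genes, 1123 of 15127 were called without the trend and 248 of 15897 in the joint fit. CHUK was also lost with no filter on low values (adjusted p = 0.0632). IL1B differed between lines, lower in MCF10A and higher in MCF10CA1h by the signs of its calls, with a contrast of 5.60 ± 0.72, adjusted p = 2.9e-04. Of the 26 targets tested, 6 had a contrast called between MCF10CA1h and MCF10A, where 5.34% of all genes did, and 10 had 1 called between MCF10AT1 and MCF10A, where 21.6% did. The lists were written by hand as textbook members of the pathway, with earlier results of these data known.

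**Figure D4:**
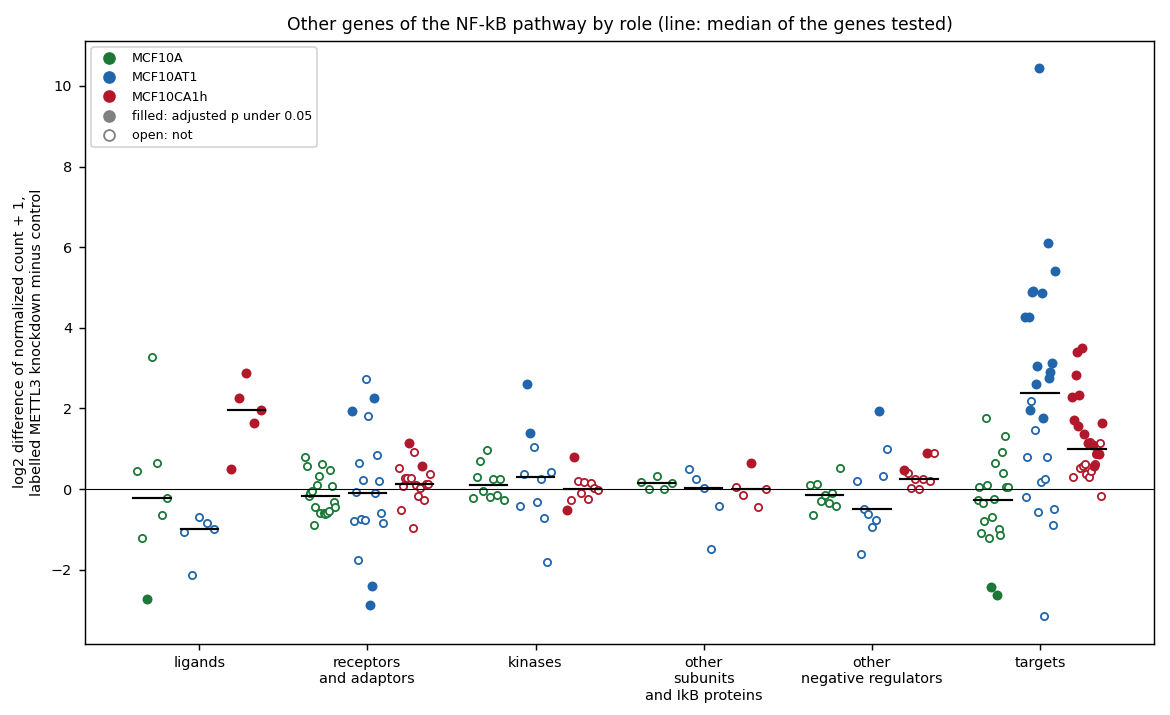
Log2 difference of the normalized count plus 1 between the libraries labelled knockdown and the controls, 1 point for each gene tested, for 6 lists of NF-kB pathway genes in the 3 lines, with filled points for an adjusted p under 0.05 (limma) and a line at the median. The median of the targets was -0.26 for MCF10A, 2.39 for MCF10AT1 and 1.00 for MCF10CA1h.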

How the data were processed

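RNA of 18 libraries was sequenced. The study names ribosomal RNA depletion in one place and polyA RNA in another, which is not settled here. Per the labels and methods, the authors quantified reads with kallisto (0.46.1), tximport brought transcripts to gene level, and DESeq2 (1.26.0, under R 4.1.1 in the submitters' processing notes) scaled the libraries. The deposited values are these normalized counts, treated here as a signal and not as read counts. The commonest low value was 0.81 to 1.77 in a library, and only 13.3% to 36.3% of low values lay within 0.02 of a whole multiple, so whole reads could not be had and a count test was not run. Of 60579 lines in the table, 35933 had values in all libraries, 35894 of these with a symbol. Identical pairs of libraries numbered 0.

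Tests were made with limma 3.58.1 in R 4.3.3 (linear fit, moderated with an intensity trend) on log2(normalized count + 1). Each line was fitted alone over genes averaging 10 or more in the fit, with Benjamini-Hochberg adjustment over all genes tested and two-sided p-values. Contrasts of lines used all 18 libraries, and the controls were fitted in 9. METTL3 was also tested by exact permutation. Other steps used Python 3.11.15 with pandas 2.3.3, NumPy 2.4.6, SciPy 1.17.1 and matplotlib 3.10.9. The fit was tested on simulated data. Same-letter libraries of the arms deviated together over 15897 genes in MCF10A (r = 0.22, 0.20 and 0.12) and MCF10AT1 (0.11, 0.29 and 0.48). Pairs of unlike letters had r from -0.17 to 0.0087 in MCF10A. In MCF10AT1, control replicate b with replicate a labelled knockdown had r = 0.25, above the value for letter a. The other unlike pairs there had r from -0.41 to 0.014. The letters were taken to pair both lines, less clearly MCF10AT1, which comes from the data and not from the labels.

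The members and lists were chosen with earlier results of these data known. Named genes are the 10 members and METTL3, up to 4 called genes of largest change in each pathway list and line, markers near 0 in 1 arm and called there, and the 2 genes most like each member. CDH1, named as a marker, was chosen after its values were seen. Alternatives were the pseudocount, the filter on low values, the trend, scaling, the letter block, a joint fit, and libraries left out. Positions are from GENCODE release 44 on hg38, and promoter windows from RefSeq on GRCh38.p14.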

Additional observations from a re-analysis of the deposited data

Results flagged for a closer look

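Of the 10 genes, those listed below had a log2 difference between the arms that differed between lines, by limma contrasts in 1 fit of 18 libraries. Of all genes, 21.6% were called between MCF10AT1 and MCF10A, 5.34% between MCF10CA1h and MCF10A and 18.2% between MCF10CA1h and MCF10AT1. The arms went through clonal selection, so these contrasts cannot be told apart from differences between clones.
For RELB the log2 difference was larger in MCF10AT1 than in MCF10A by 2.99 (adjusted p = 4.7e-04) and smaller in MCF10CA1h than in MCF10AT1 (-2.68, adjusted p = 0.0014).
NFKB2 differed between MCF10AT1 and MCF10A (1.67, adjusted p = 0.00818).
TNFRSF11B differed between MCF10AT1 and MCF10A (-3.21, adjusted p = 0.00237) and between MCF10CA1h and MCF10A (-2.71, adjusted p = 0.0257).
BIRC3 differed between MCF10CA1h and MCF10AT1 (1.84, adjusted p = 0.0469).
The groups hold 3 libraries each, so a test for a library far from the others of its group was not made.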

How the results depend on the processing

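The rise of RELB in MCF10AT1 and its contrasts of MCF10AT1 with the other lines were past the threshold under every alternative run, which were pseudocounts of 0.5 and 5, no filter, a stricter filter at 50, no intensity trend, equal sums, rescaling by median-of-ratios factors (1.013 to 1.018), the letter block, the joint fit where it applies, and each library left out.
Ranges without a library, given next, cover each library left out and, within a line, both libraries of a letter left out.
Called members in MCF10A were 0 with a mean of at least 50 (TNFRSF11B was then not tested, and 2 of the other 9 had an unadjusted p under 0.05 by limma), 2 with the replicate block and 0 to 2 without a library. Of all genes, 301 of 12124 were called with a mean of at least 50 and 1172 of 15416 with the block.
In MCF10AT1 they were 1 to 3 without a library.
In MCF10CA1h they were 0 without the intensity trend and 0 in the joint fit (2 and 0 at an unadjusted p under 0.05), and 0 to 3 without a library, and 4 with the replicate block, which added NFKBIA (adjusted p = 0.0397) and TNFAIP3 (0.0064). Of all genes, 1123 of 15127 were called without the trend, 248 of 15897 in the joint fit and 1876 of 15127 with the block. Over all genes the letters do not pair the libraries of that line, with same-letter correlations of -0.011, 0.017 and 0.046. Replicate a was still the highest in both of its arms for NFKBIA, TNFAIP3 and BIRC3.
Contrasts of lines had 5 called members with the block for MCF10AT1 against MCF10A (3 to 4 without a library), 2 for MCF10CA1h against MCF10A and 4 for MCF10CA1h against MCF10AT1. With the block 28.9%, 8.07% and 24.8% of all genes were called, in that order.
MCF10CA1h against MCF10A had 0 with no filter and with a mean of at least 50 (2 and 1 at an unadjusted p under 0.05), and 0 to 1 without a library, and MCF10CA1h against MCF10AT1 had 1 with no filter, with no trend and with equal sums, and 1 to 4 without a library. Of all genes, 682 of 35933 were called with no filter and 711 of 12460 with a mean of at least 50 for MCF10CA1h against MCF10A. For MCF10CA1h against MCF10AT1 they were 2721 of 35933 with no filter, 2744 of 15897 with no trend and 2730 of 15891 with equal sums.
Controls without a library gave 3 to 6 for MCF10AT1 against MCF10A, 1 to 2 for MCF10CA1h against MCF10A and 2 to 6 for MCF10CA1h against MCF10AT1. Over all genes the calls in these fits ranged from 1661 to 8142, 3675 to 7623 and 1608 to 5593, in that order.
Between controls the block ties the letters across the lines, and whether letters pair across lines was not tested. It changed no call of a member there. Over all 15652 genes the calls went from 4391 to 3686 for MCF10AT1 against MCF10A. They went from 5920 to 5417 for MCF10CA1h against MCF10A and from 3410 to 2756 for MCF10CA1h against MCF10AT1.
Pathway genes called were 0 without the trend, 10 with the block and 0 to 9 without a library in MCF10A, 34 with the block, 35 in the joint fit and 7 to 23 without a library in MCF10AT1, and 15 without the trend, 3 in the joint fit and 14 to 24 without a library in MCF10CA1h. The calls over all genes moved too. In MCF10A they were 237 of 15416 without the trend, 1172 with the block and 2 to 1418 without a library. In MCF10AT1 they were 3939 of 16050 with the block, 5146 of 15897 in the joint fit and 542 to 2439 without a library. In MCF10CA1h they were 1123 of 15127 without the trend, 248 of 15897 in the joint fit and 880 to 1785 without a library.

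With equal sums per library the sign turned for NFKB2 (0.013) and TNFAIP2 (0.028) in MCF10A, TNFRSF11B in MCF10CA1h (-5.56e-05), NFKBIE between MCF10CA1h and MCF10A (-0.021) and NFKB1 between MCF10CA1h and MCF10AT1 (0.028), none of them called.
Leaving out libraries turned the sign of uncalled log2 differences, which ranged as follows.
In MCF10A they ran from -0.23 to 0.46 for BIRC3, -0.36 to 0.19 for NFKB2, -0.39 to 0.34 for RELB and -0.19 to 0.15 for TNFAIP2.
In MCF10AT1 they ran from -0.50 to 0.23 for NFKB1, -0.41 to 1.79 for TNFAIP3 and -0.84 to 0.00902 for TNFRSF11B, and in MCF10CA1h from -0.11 to 0.36 for TNFAIP2 and -0.22 to 0.27 for TNFRSF11B.
Contrasts of MCF10AT1 with MCF10A ran from -0.65 to 0.034 for NFKB1, those of MCF10CA1h with MCF10A from -0.083 to 0.34 for NFKBIE, -0.014 to 0.72 for RELB and -0.056 to 0.42 for TNFAIP2, and those of MCF10CA1h with MCF10AT1 from -0.39 to 0.29 for NFKB1, -0.18 to 0.52 for NFKBIA, -0.31 to 0.067 for RELA and -1.06 to 1.14 for TNFAIP3.
Controls of MCF10CA1h against MCF10A ran from -0.071 to 0.40 for NFKBIA, -0.026 to 0.19 for RELA and -0.87 to 0.19 for TNFAIP3, and against MCF10AT1 from -0.26 to 0.54 for BIRC3, -0.20 to 0.29 for NFKB2 and -0.25 to 0.41 for TNFRSF11B.
The cause of these shifts was not tested, beyond the fewer libraries or genes that an alternative holds. The alternative that leaves out both libraries of a letter was chosen after seeing the data.
The depth per gene is unknown, so no counting interval is given, and TNFRSF11B in particular rests on low values.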
